A study of Bos taurus
Mus musculus with 10 samples.

Results

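Glycolysis and hypoxia genes were examined in bovine embryonic stem cells after 1 day without IWR-1. The set holds 33 genes chosen by symbol, for their known role in these pathways, and no threshold on measured values entered the rule. It comprises 17 glycolytic enzymes, 4 transporters of glucose or lactate, 3 regulatory enzymes and 9 targets of the hypoxia response. All 33 were found among the 27590 genes of the bovine table, and all 33 passed the filter on low values, which asked for at least 10 normalised reads in at least 5 libraries. In total 18506 genes were tested.

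RNA was sequenced from 10 wells in which wild-type bovine stem cells grew together with mouse embryonic fibroblast feeders. IWR-1 blocks the tankyrases, keeps AXIN stable and thereby lowers signalling through beta-catenin. The IWRR wells received medium without IWR-1 for 1 day, and the IWR wells kept mTeSR1 medium with 2.5 µM IWR-1. Lines 1, 2, 4, 8 and 11, each derived from blastocysts of day 7.5, contributed 1 well to each medium, so there were 5 IWRR and 5 IWR libraries. The feeders came from CD-1 mouse fetuses and had been arrested with mitomycin C for 2 h. Each line is 1 derivation, so a difference between lines is a difference between 5 particular cultures.

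Glycolysis splits glucose into pyruvate, and lactate dehydrogenase turns pyruvate into lactate when it is not passed on to the mitochondria. Pluripotent stem cells are known for running this pathway at a high rate even where oxygen is present. When oxygen is low, prolyl hydroxylases no longer mark the alpha subunits of hypoxia-inducible factors for degradation, and these factors raise glucose transporters, most glycolytic enzymes, PDK1, VEGFA, CA9 and BNIP3. Many members counted here as enzymes or transporters are thus hypoxia targets as well. Their roles are known mainly from human and mouse cells.

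In every library the reads had been counted on bovine and on mouse genes, 48064953 to 64345738 and 17101894 to 35223039 reads. The mouse share of reads was 26.8% ± 8.45 in IWRR wells and 30.4% ± 7.57 in IWR wells (SD, n = 5 each), lower in the IWRR well of each line, with a mean difference of -3.64 points (exact two-sided sign-flip test, p = 0.0625, the smallest p that 5 pairs allow). Pluripotency markers were present throughout: POU5F1 stood at 18294 to 58134 normalised reads in IWRR wells and 19326 to 62019 in IWR wells, and SOX2 at 13371 to 19067 and 13611 to 22072. Reads counted on bovine genes for 20 fibroblast markers summed to 30387 to 222799 normalised reads in IWRR wells and 26086 to 187845 in IWR wells. Line 4 was highest in both media. In each well 17 to 20 of these 20 markers stood at 10 or more normalised reads, though FAP was at 0 in 4 IWRR and 4 IWR wells. Whether reads from the mouse feeders entered these sums was not tested. Trophectoderm markers summed to 270 to 2127 in IWRR wells and 238 to 1838 in IWR wells, with CDX2 at 0 in 3 IWRR and 4 IWR wells. Because the wells hold mixed cells, fewer cells of a type and less RNA per cell cannot be told apart.

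VEGFA, the vascular growth factor gene (gene ID 281572), rose after IWR-1 removal and was the 1 member of the 33 that passed the test. It had 3598, 1254, 853, 1653 and 1074 normalised reads in the IWRR wells of lines 1, 2, 4, 8 and 11, against 2383, 787, 716, 1031 and 556 in the IWR wells of the same lines. The media overlapped because the lines lay far apart, yet within each line the IWRR well was higher. The log2 change was 0.63 ± 0.09 (SE), or 1.55-fold, with a limma adjusted p of 0.0131. By line, the log2 change was 0.59, 0.67, 0.25, 0.68 and 0.95, smallest in line 4 and largest in line 11. None of the 33 members fell, and 12 of them had an unadjusted p under 0.05 in either direction, against 10.1% of all genes tested. Of all 18506 genes tested, 0.886% rose and 0.0648% fell.

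The VEGFA call depended on the pairing of wells within lines and on 2 of the lines. Without the line as a block the adjusted p was 1.00 by limma. The adjusted p was 0.0857 without line 1 (log2 change 0.64) and 0.0773 without line 11 (log2 change 0.55). Calls over all genes also went down in these fits, from 176 to 0 without the block, 36 without line 1 and 31 without line 11. With the mouse share of each well as a covariate, a fit in which no gene at all was called, the VEGFA change was 0.23 ± 0.15 on the log2 scale. In the IWRR well of each line the mouse share was lower and the summed fibroblast markers were higher than in its IWR well; the part of the fibroblast markers in the VEGFA change was not tested.

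**Figure D1:**
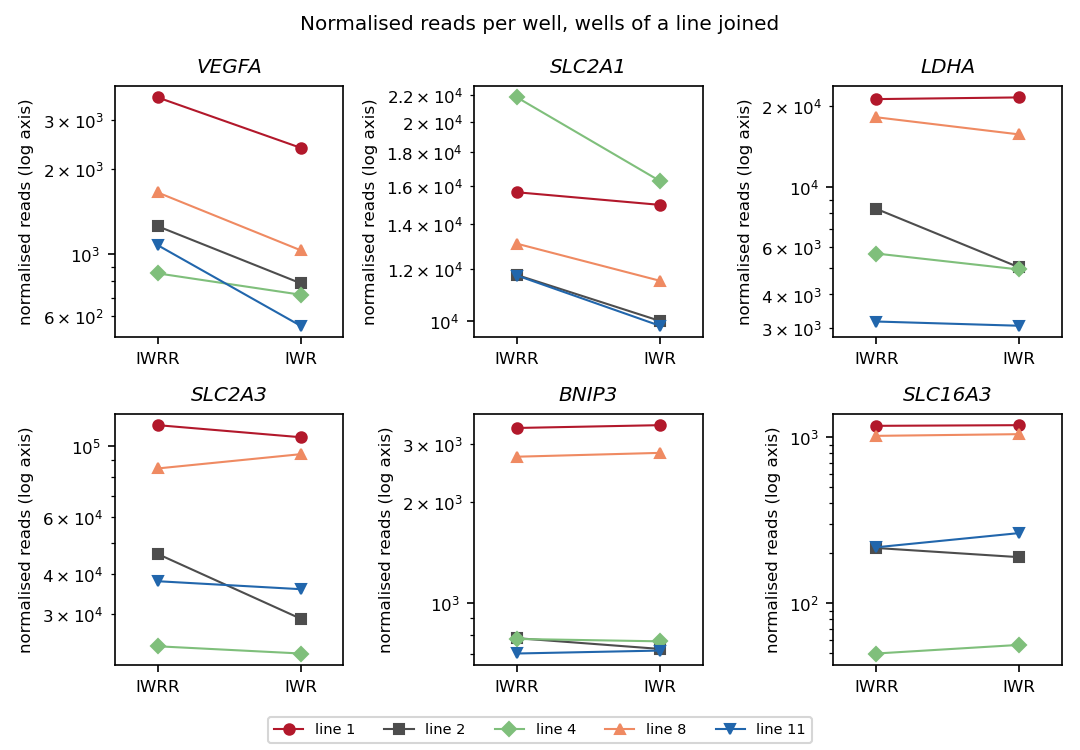
Normalised reads on log axes for 6 members, with IWRR wells on the left and IWR wells on the right of each panel and the wells of a line joined. VEGFA and SLC2A1 sit higher in the IWRR well of every line, whereas for LDHA, BNIP3 and SLC16A3 lines 1 and 8 lie above lines 2, 4 and 11 in both media.

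Among the 24 enzymes, transporters and regulatory enzymes, none passed the test by limma, edgeR or DESeq2, against 176, 190 and 422 of all 18506 genes tested. An unadjusted p under 0.05 was seen for 8 of the 24, against 10.1% of all genes tested. Their median log2 change was 0.10, or 0.04 without line 2, and 17 of 24 were positive; over all genes tested the median was -0.0046, and 8949 of 18506 were positive. Direction was shared by all 5 lines for 5 of these 24, 3 upward and 2 downward. Among all genes tested, 11.1% moved the same way in 5 of 5 lines, 6.2% upward and 4.92% downward.

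Glucose enters through facilitative transporters. SLC2A1, which encodes the widely expressed glucose transporter GLUT1, had 15660, 11740, 21786, 13092 and 11720 normalised reads in IWRR wells, against 14988, 10007, 16289, 11508 and 9839 in IWR wells, in the same order of lines. It was higher in the IWRR well of 5 of 5 lines, most in line 4, but the log2 change of 0.23 ± 0.06 did not pass the test (limma adjusted p = 0.150). SLC2A3, encoding the high-affinity transporter GLUT3, had a log2 change of 0.16 ± 0.10 with values in line 2 far from the rest, 0.67 against -0.15 to 0.12.

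Hexokinases trap glucose as glucose 6-phosphate. HK2, the inducible form, had 11681, 6303, 3286, 7292 and 3223 normalised reads in IWRR wells and 9512, 4535, 2667, 7703 and 2568 in IWR wells. It was higher without IWR-1 in 4 of 5 lines, with line 8 the exception. Its log2 change was 0.26 ± 0.08 (limma adjusted p = 0.179), and leaving out line 8 gave 0.35 and an adjusted p of 0.0302. Leaving out any other line gave 0.21 to 0.26 and limma adjusted p of 0.276 to 0.582. HK1, the more widely expressed form, was at -0.05 ± 0.08, positive in line 2 and negative in the other 4 lines. HK2 reads per 100 HK1 reads were 35.6, 16.1, 20.5, 34.1 and 16.4 in IWRR wells, against 26.1, 14.5, 15.6, 32.8 and 11.6 in IWR wells, higher in the IWRR well of each line. Transcript length enters this ratio, so its size in any 1 well carries no meaning, only its difference between wells.

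At the middle and lower steps the differences were small and none passed the test. The phosphofructokinase genes PFKP, PFKL and PFKM, whose products commit sugar to glycolysis, had log2 changes of 0.13 ± 0.06, 0.09 ± 0.06 and -0.07 ± 0.05. GPI, ALDOA and TPI1, which act around that step, stood at 0.04, 0.10 and 0.15, and the second aldolase gene ALDOC at -0.08. GAPDH, often used as a loading control, was at -0.03 ± 0.08, with 150202, 113960, 83611, 142109 and 92916 normalised reads in IWRR wells and 160191, 114775, 86926, 129539 and 101993 in IWR wells. Line 4 was lowest and line 1 highest in both media, and the media overlapped. PGK1 was at 0.08 and ENO1 at 0.10.

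PGAM1, the mutase of the lower pathway, was the 1 enzyme higher in the IWRR well of every line. It had 67110, 49336, 40381, 62832 and 36140 normalised reads in IWRR wells, against 62184, 44621, 33466, 50484 and 31812 in IWR wells (log2 change 0.21 ± 0.06, limma adjusted p = 0.239). ENO2, the neuronal-type enolase, was lower in the IWRR well of 5 of 5 lines, at -0.14 ± 0.06 (limma adjusted p = 0.435), as was the pyruvate kinase gene PKM, at -0.05 ± 0.07. None of these 3 passed the test.

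At the end of the pathway, LDHA (gene ID 281274), encoding the lactate dehydrogenase subunit of muscle type, had 21276, 8321, 5677, 18215 and 3175 normalised reads in IWRR wells, against 21584, 5044, 4954, 15730 and 3062 in IWR wells. Its log2 change was 0.23 ± 0.09 (limma adjusted p = 0.429), of which line 2 gave 0.72 and the others -0.02 to 0.21. LDHB, the heart-type subunit, was at 0.03 ± 0.08, with line 2 the lowest at -0.24. SLC16A1, encoding the monocarboxylate transporter MCT1, was higher in the IWRR well of 5 of 5 lines (0.24 ± 0.08, limma adjusted p = 0.264), and SLC16A3, encoding the lactate exporter MCT4, was at -0.06 ± 0.10. PFKFB3 and PFKFB4, which set the level of the activator fructose 2,6-bisphosphate, were at 0.22 ± 0.08 and 0.09 ± 0.09. PDK1, the kinase that holds pyruvate dehydrogenase inactive, was at 0.16 ± 0.10.

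Of the 9 hypoxia targets, VEGFA rose and the other 8 did not pass the test. The median log2 change of the 9 was 0.15. An unadjusted p under 0.05 was seen for 4 of the 9, against 10.1% of all genes tested. EGLN3, a prolyl hydroxylase of the oxygen sensor, and NDRG1, a stress-induced gene, were higher in the IWRR well of 5 of 5 lines, at 0.15 ± 0.05 and 0.16 ± 0.06 on the log2 scale. P4HA1, which encodes a collagen prolyl hydroxylase subunit, had 1068, 1005, 713, 1627 and 1061 normalised reads in IWRR wells, against 846, 602, 735, 1529 and 850 in IWR wells (0.29 ± 0.10, limma adjusted p = 0.336). It was higher without IWR-1 in 4 of 5 lines, with line 4 the exception.

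BNIP3, a mitophagy receptor gene, showed almost no difference between media. It had 3345, 782, 778, 2742 and 703 normalised reads in IWRR wells, against 3411, 726, 765, 2816 and 718 in IWR wells (log2 change 0.01 ± 0.06). The carbonic anhydrase gene CA9 was at 0.12 ± 0.11, positive in 3 of 5 lines. KDM3A, a histone demethylase, was at -0.07 ± 0.06.

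ADM and ANKRD37 rested on few reads. ADM, the adrenomedullin gene, had 90, 28, 59, 58 and 9 recovered reads in IWRR wells and 89, 4, 48, 90 and 4 in IWR wells, and its log2 change of 0.62 ± 0.40 came mostly from lines 2 and 11. ANKRD37 had 0 recovered reads in the IWRR well of line 4, which allows up to 3.46 normalised reads, and 4 recovered reads in its IWR well. Its log2 change of -0.50 ± 0.37 is carried by that line; without line 4 it was 0.00. On recovered reads it was -0.07 by edgeR and -0.08 by DESeq2, so the size of the fitted change depends on the value added before taking logs.

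**Figure D2:**
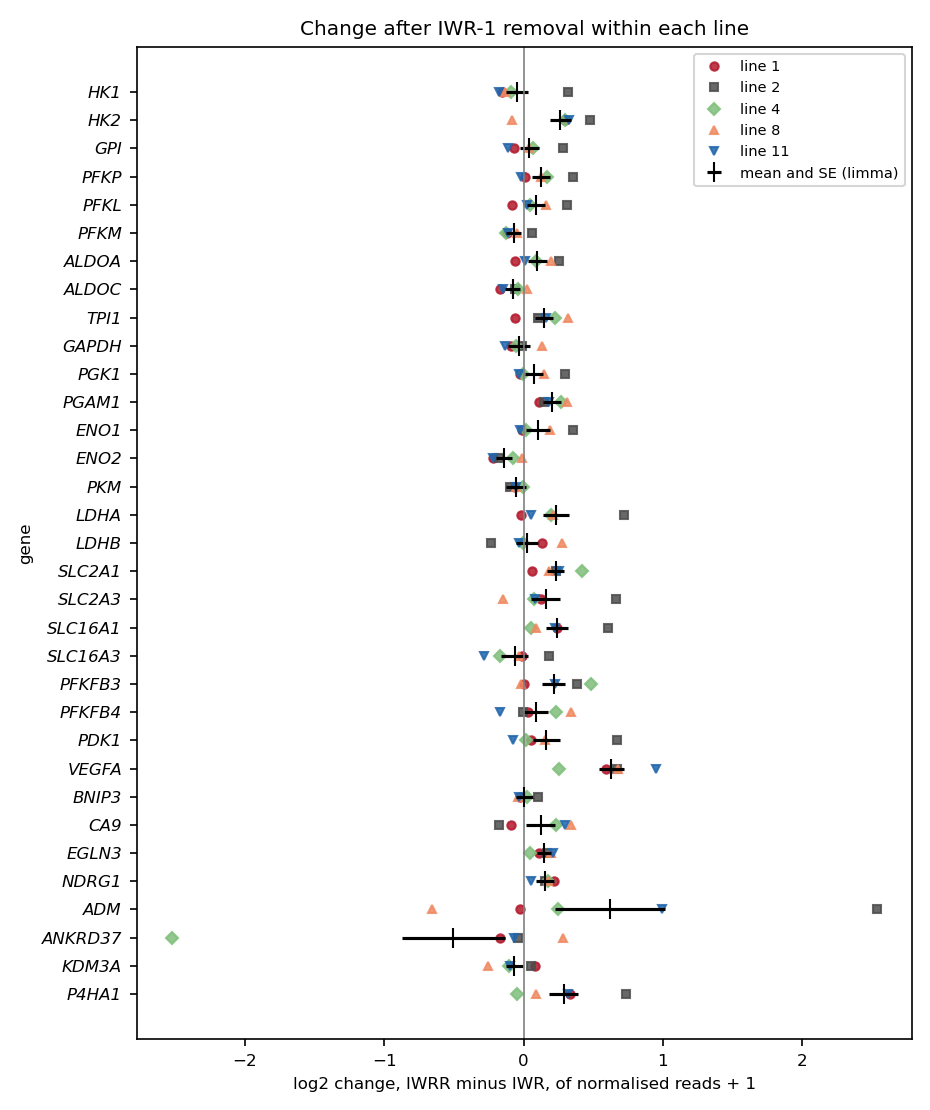
Log2 change of IWRR minus IWR for each of the 33 members (rows), with 1 coloured point per line and a black bar for the limma mean and its SE. VEGFA is the 1 member whose mean of 0.63 passed the test; the points of line 2 lie to the right for LDHA, SLC2A3, SLC16A1, PDK1 and P4HA1.

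The size of the change varied over the lines, and this variation was not tested. The median log2 change over the 33 members was -0.01 in line 1, 0.23 in line 2, 0.04 in line 4, 0.13 in line 8 and -0.02 in line 11, while the median over all genes tested lay between -0.01 and 0.03 in every line. Counted by size in either direction, line 2 gave the largest change of the 5 lines for 16 of 33 members, against 34.2% of all genes tested, and line 8 for 6, against 27.1%. Line 2 gave the most positive change for 17 of 33 members, against 31.3% of all genes tested. Both tallies were made after the values were seen. With 1 well per line and medium, a difference in response between lines cannot be told apart from a difference between wells.

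The members differed between lines, as most genes tested did. All 33 differed between the 5 lines (limma F test of the line terms, adjusted p between 4.09e-08 for BNIP3 and 0.0135 for PFKFB4), as did 66.5% of all genes tested. The span from the lowest to the highest line mean had a median of 1.15 on the log2 scale over the 33 members, against 0.77 over all genes tested. The median size of the change between media was 0.13 for the members and 0.08 for all genes tested. The span takes the extremes of 5 lines and the change is a mean over them, so their sizes are not directly comparable. A span of more than 1, or over 2-fold, was seen for 20 of 33 members and for 38% of all genes tested. Each line is represented by 1 IWRR and 1 IWR well, so this test sets the lines against the spread that is left between the wells of a line.

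**Figure D3:**
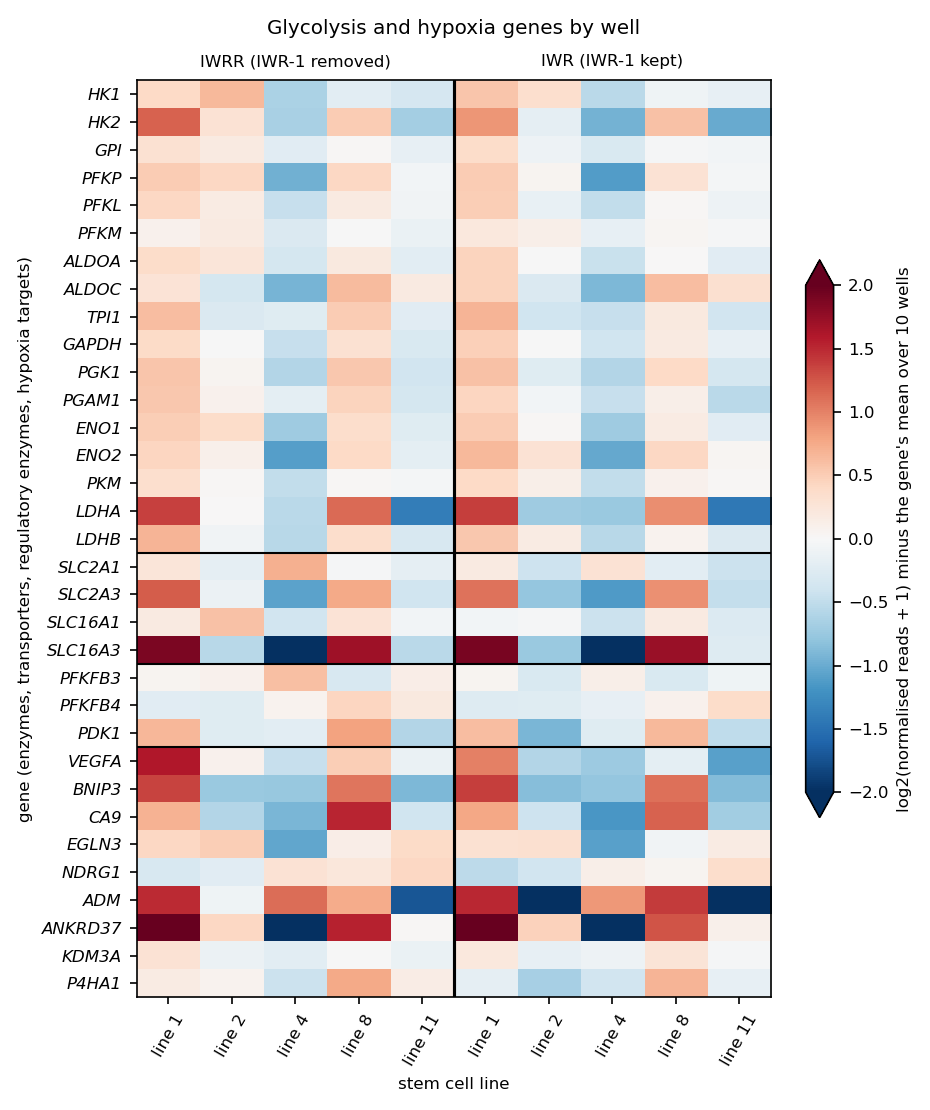
Heat map of log2(normalised reads + 1) minus the gene's mean over the 10 wells, with the 5 IWRR wells left of the 5 IWR wells and genes grouped as enzymes, transporters, regulatory enzymes and hypoxia targets (colours saturate at 2). Columns of the same line look alike in both media, with lines 1 and 8 mostly red and line 4 mostly blue.

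Lines 1 and 8 were the highest pair in both media for 18 of 33 members, against 8.55% of all genes tested; these were 13 of the 24 enzymes and transporters and 5 of the 9 hypoxia targets. No other pair of lines held more than 4 members. Line 1 was highest in both media for 20 of 33 members (12.2% of all genes tested). It was also highest in both for 11 of 20 genes of the tricarboxylic acid cycle, a list described below. Line 4 was lowest in both media for 19 of the 33 members (18.4% of all genes). Line 11 was lowest in both for 6 (8.27% of all genes). The tally over pairs was made after the values were seen. Leaving line 4 out, lines 1 and 8 were the highest pair for 20 of 33 members, against 11.4% of all genes.

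Among the 18 members with this order the widest spans were those of ANKRD37 (6.09), SLC16A3 (4.46), LDHA (2.78), CA9 (2.39), SLC2A3 (2.25) and BNIP3 (2.25). ANKRD37 was lowest in line 4, with 0 and 4 recovered reads in the IWRR and IWR wells, so the size of its span depends on the value added before taking logs. SLC16A3 had 1172 and 1182 normalised reads in the IWRR and IWR wells of line 1, 1019 and 1044 in line 8, 217 and 264 in line 11, 215 and 189 in line 2, and 49.6 and 55.9 in line 4. Lines 1 and 8 lay far above the rest, lines 2 and 11 were close to each other, and line 4 was lowest. BNIP3 formed a high pair and a low trio: 2742 to 3411 normalised reads in the 4 wells of lines 1 and 8, and 703 to 782 in the 6 wells of lines 2, 4 and 11. The wells of the low trio lay close together, and the order of its lines differed between the media.

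LDHA had its lowest values in line 11, at 3175 normalised reads in the IWRR well and 3062 in the IWR well, against 15730 to 21584 in lines 1 and 8, a span of 2.78 on the log2 scale. LDHB varied less, with a span of 1.16. LDHA reads per 100 LDHB reads were 26.7, 17.6, 16.7, 28.7 and 7.96 in IWRR wells, against 29.8, 9.06, 14.6, 29.9 and 7.49 in IWR wells, so lines 1 and 8 stood above the others in this ratio too. SLC2A3 spanned 2.25, with 84980 to 115730 normalised reads in lines 1 and 8 against 22692 to 46164 in the rest. CA9 was highest in line 8, at 998 and 787 in the IWRR and IWR wells, followed by line 1 at 559 and 593, and the other 6 wells held 155 to 262.

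Some members had another order. SLC2A1 and PFKFB3 were highest in line 4 in both media, as 19.1% of all genes tested were, at 21786 and 4113 normalised reads in the IWRR wells and 16289 and 2943 in the IWR wells. EGLN3 was highest in line 2 and NDRG1 in line 11, and NDRG1 was lowest in line 1. The narrowest spans were those of PFKM (0.39), KDM3A (0.41) and PFKFB4 (0.53).

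Other measures of the wells also differed between lines, but without the gap between lines 1 and 8 and the rest that BNIP3 showed. The mouse share of reads, from its lowest to its highest line, followed the order 1, 8, 2, 11 and 4, at 21.2%, 21.5%, 23.2%, 26.6% and 41.4% in IWRR wells and 23.4%, 25.7%, 27.4%, 33.3% and 42.3% in IWR wells. The summed fibroblast markers, counted on bovine genes, followed the same order, at 30387, 47660, 60918, 114105 and 222799 normalised reads in IWRR wells and 26086, 39266, 43721, 76132 and 187845 in IWR wells. Whether mouse reads entered these sums was not tested. The 10 pluripotency markers were highest in lines 1 and 2 and lowest in line 4. With the mouse share as a covariate beside the line, 19 of 33 members differed between lines, against 6288 of all 18506 genes. BNIP3, SLC16A3, LDHA, SLC2A3, HK2, CA9 and VEGFA were among the 19, while GAPDH, PKM, ENO1 and PFKL were not. The share moved closely with line and medium, with 1 well for each. This fit therefore cannot tell members that follow the share from members that do not. The part of the fibroblast-marker genes in the differences between lines was not tested.

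**Figure D4:**
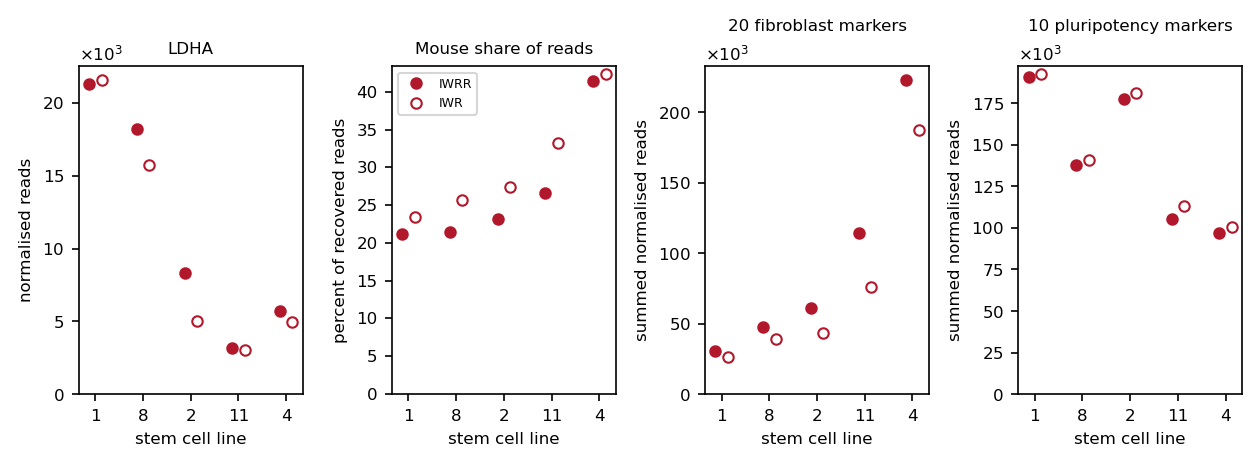
LDHA, the mouse share of reads, the summed fibroblast markers and the summed pluripotency markers in each well, with lines ordered by mouse share on the horizontal axis, IWRR wells filled and IWR wells open. LDHA is high in lines 1 and 8, where the mouse share and the fibroblast markers are lowest.

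Other genes of these pathways were read from lists written down beside the members. Of 40 further hypoxia targets tested, 1 rose and 0 fell by limma, against 0.886% and 0.0648% of all genes tested. The median log2 change of the 40 was 0.03. Their unadjusted p was under 0.05 for 9, against 10.1% of all genes tested. By edgeR 1 of the 40 was called, against 190 of all 18506 genes tested, and by DESeq2 3 were, against 422. The gene that rose was LOXL2, a collagen-crosslinking enzyme of the lysyl oxidase family. It had 4543, 5953, 12005, 3388 and 7949 normalised reads in IWRR wells, against 3613, 3898, 9385, 2979 and 5169 in IWR wells (log2 change 0.42 ± 0.07, limma adjusted p = 0.0253). LOXL2 was highest in line 4, as the fibroblast markers were, and those markers were higher in the IWRR well of 5 of 5 lines. The part of the fibroblast markers in the LOXL2 change was not tested. The LOXL2 call was lost without line 1, 4 or 11 (limma adjusted p of 0.104, 0.0719 and 0.169), with no filter on low values (0.0783), without the line block and with the mouse share as covariate (1.00 in both).

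Among 15 tested genes of the oxygen-sensing machinery 0 fell and 1 rose by limma, against 0.0648% and 0.886% of all genes tested. This was CITED2, which competes with hypoxia-inducible factors for their co-activator. It stood at 8097 ± 2076 normalised reads in IWRR wells and 6644 ± 2154 in IWR wells (SD, n = 5 each; log2 change 0.30 ± 0.06, limma adjusted p = 0.0411), higher in IWRR in 5 of 5 lines. Leaving out any 1 line ended its call (limma adjusted p of 0.0532 to 0.180), as did no filter (0.0939), scaling by total bovine reads (0.0561), the fit without the line block and the mouse share as covariate (1.00 in both). HIF1A, the alpha subunit gene of hypoxia-inducible factor 1, was at 0.05, and its levels of 12712 to 19456 normalised reads in IWRR wells and 12204 to 17322 in IWR wells spanned 0.55 between lines. EPAS1, encoding the second alpha subunit, was below the filter. The prolyl hydroxylase gene EGLN1 was at 0.06 between media and spanned 1.28 between lines, lowest in line 11.

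None of 42 further glycolysis and pyruvate genes tested was called by limma, edgeR or DESeq2, against 176, 190 and 422 of all 18506 genes tested. The median log2 change of the 42 was -0.01. An unadjusted p under 0.05 was seen for 6 of the 42, against 10.1% of all genes tested. The pyruvate carboxylase gene PC (0.29 ± 0.08, limma adjusted p = 0.174) and the pyruvate dehydrogenase kinase gene PDK3 (0.23 ± 0.07, limma adjusted p = 0.198) were positive in 5 of 5 lines, as was PDP1 (0.21), and PGAM2 was negative in all 5 (-0.40). None of 8 genes of the pentose phosphate branch and none of 20 of the tricarboxylic acid cycle was called by limma, edgeR or DESeq2, with 1 and 0 at an unadjusted p under 0.05. PGD, a dehydrogenase of the pentose branch, stood at 0.18, and TKT, RPIA and RPE at 0.13, 0.13 and 0.11. In the cycle, IDH1 was at 0.11, and ACO1, DLST and SDHA at 0.06, 0.05 and -0.06.

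Between lines, the further hypoxia targets spread about as widely as the members. Their median span was 1.36, and 24 of 40 spanned more than 1 on the log2 scale. The highest pair in both media was lines 1 and 8 for 10 of the 40, among them AK4, DDIT4, BNIP3L, MXI1 and P4HA2. This pair was highest for 4 of 20 genes of the tricarboxylic acid cycle and 2 of 15 oxygen-sensing genes. It was highest for 1 of 42 further glycolysis and pyruvate genes and 0 of 8 of the pentose branch. Line 1 was highest in both media for 17, 11, 2, 6 and 2 genes of these lists, in the order named. AK4, an adenylate kinase gene, had 4165, 1253, 574, 2903 and 218 normalised reads in IWRR wells and 3939, 724, 628, 3001 and 227 in IWR wells. DDIT4, a stress-induced inhibitor of the kinase complex mTORC1, reached 15705 normalised reads in the IWRR well and 16245 in the IWR well of line 1. Elsewhere it held 2202 to 5033 in IWRR wells and 2777 to 5118 in IWR wells. By contrast, 0 of 20 genes of the tricarboxylic acid cycle and 0 of 8 of the pentose branch spanned more than 1, with medians of 0.52 and 0.48. The median span of the 15 oxygen-sensing genes was 0.44 and that of the 42 further glycolysis and pyruvate genes 0.65. These differences between lists were given no test.

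**Figure D5:**
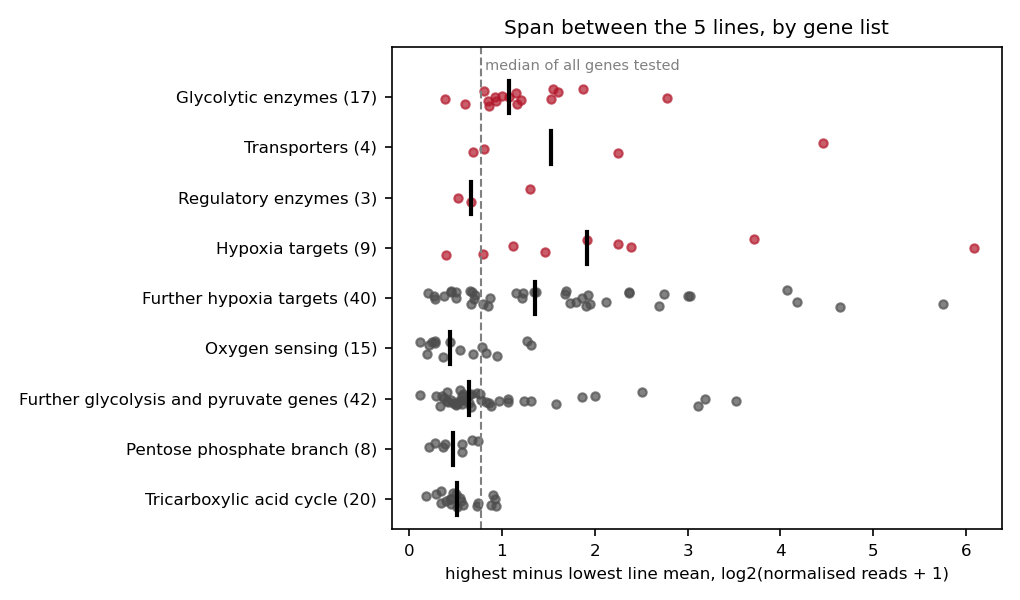
Span from the lowest to the highest line mean of log2(normalised reads + 1), 1 point per gene, for the 4 groups of members in red and the other gene lists in grey, with the number of genes tested in brackets. Black bars mark list medians, which are 1.92 for hypoxia targets and 0.52 for the tricarboxylic acid cycle, and the dashed line marks the median of 0.77 over all genes tested.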

How the data were processed

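For each species, the authors deposited scaled gene values (unit: signal) for every library. Per the labels, bovine values refer to ARS-UCD1.3 and mouse values to GRCm39. Tools named, per the submitters' processing notes, were featureCounts 1.5.0-p3, StringTie 1.3.3b, HISAT2 2.0.5 and fastp. The scaling, the use of strand, and the treatment of reads that align to both genomes or to near-identical gene copies are not given in the sources used here. Such copies are common for GAPDH, PGAM1, ENO1, LDHA and other glycolytic genes in mammals. Within a library every signal value was a whole multiple of 1 step, so whole reads were recovered for 100% of positive values at a tolerance of 0.01 reads. Not used were 2 mouse columns that matched no sample.

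Symbols came from a RefSeq table of ARS-UCD2.0, which 24660 of 27590 bovine gene IDs matched; no coordinates are given because the assembly differs. In that table SLC16A3 overlaps CSNK1D, HK1 overlaps TACR2 and HKDC1, PGK1 overlaps TAF9B, and PFKFB3 overlaps PRKCQ, and reads of such pairs may be shared.

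The test was limma 3.58.1 in R 4.3.3 (trended prior variance, log2 of value + 1), with medium and line as terms, Benjamini-Hochberg adjusted over all 18506 tested genes and called under 0.05. A change on this scale depends on the added 1 for low genes. Wells were paired by line since each number in the labels names 1 cell line; deviations from the group means correlated within lines at 0.617 to 0.883. Each line gave 1 well per medium. The tests of medium and of line thus both rest on how the within-line change varied over the 5 lines. edgeR 4.0.16 and DESeq2 1.42.0 on recovered reads were alternatives. The limma fit was tested on simulated data. The limit for a count of 0 covers counting error only. Members, lists and tests were chosen with earlier results of these data known. Named are all members and, of each further list, the called genes or otherwise up to 4 with the smallest adjusted p; AK4, DDIT4, BNIP3L, MXI1, P4HA2, HIF1A, EPAS1 and EGLN1 were named after their values were seen.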

Additional observations from a re-analysis of the deposited data

Results flagged for a closer look

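In 66 groups of 5 wells (33 members in 2 media), 1 well stood apart from the other 4 by Dixon's test in 2 groups; chance flags about 1 in 20 groups. VEGFA in IWR wells was 2383 normalised reads in line 1, against 556 to 1031 in the other 4 lines. P4HA1 in IWR wells was 1529 normalised reads in line 8, against 602 to 850 in the others.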

How the results depend on the processing

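With the line as replicate block, 1 of 33 members was called (VEGFA), and without it 0; 0 were called with the mouse share as a covariate, and 0 to 2 with 1 line left out (VEGFA in the fits without line 2, 4 or 8, and HK2 in that without line 8). Over all genes, 176 were called, against 0 with no replicate block, 0 with the covariate, 53 with no filter, 422 by DESeq2, and 31 to 182 with 1 line left out. Members that differed between lines numbered 33, or 19 with the covariate and 29 to 33 with 1 line left out (29 without line 4). Over all genes 12304 differed, or 6288 with the covariate and 8940 to 12544 with 1 line left out. The hypoxia targets' median log2 change was 0.15, or 0.032 with the covariate. The mouse share differed by -4.32 to -2.90 percentage points with 1 line left out. Other alternatives (pseudocount of 10, a stricter filter, edgeR, TMM or total-read scaling) left 1 member called and 31 to 33 members differing between lines; ADM and ANKRD37 failed the stricter filter. The causes were not tested. Low reads limit ADM and ANKRD37.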
